A study of Mus musculus with 6 samples.

Results

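The ER unfolded protein response genes described here are 10 genes chosen by name, Hspa5, Hsp90b1, Pdia4, Calr, Xbp1, Dnajb9, Herpud1, Sdf2l1, Ern1 and Atf6, from the 54532 genes listed in each library. All 10 were found in the GENCODE M21 annotation (GRCm38) under these symbols, and all 10 were among the 10540 genes tested, those whose FPKM averaged 1 or more over the 6 libraries. In LPS-treated PGAM5 KD macrophages, 3 of them, Hspa5, Pdia4 and Herpud1, rose by 13.2% to 25.2% in mean FPKM, 1 of them, Ern1, fell by 26.6%, and the other 6 did not pass the test. Of all genes tested, 16.8% were called higher and 14.9% lower, so the counts of 3 and 1 of 10 stand near this background. No member changed by as much as 2-fold. The log2 fold change of Hspa5 went from 0.18 on FPKM to 0.10 on TPM, and its call was lost with quantile normalization. The call of Ern1 was lost in 6 alternative fits, while those of Pdia4 and Herpud1 held in all.

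RNA-seq was made from immortalized mouse bone marrow-derived macrophages (iBMDMs), a line produced by infecting bone marrow macrophages with retroviruses carrying v-raf and v-myc. Control iBMDMs carried a control shRNA (shControl), and PGAM5 KD iBMDMs carried an shRNA against PGAM5 (shPGAM5), a mitochondrial protein phosphatase, both delivered by lentivirus. Both groups, with 3 libraries each, were treated with LPS at 100 ng/ml for 4 hours, so the data hold no untreated cells and measure no induction by LPS. The labels give 1 name for each shRNA and do not say whether the replicates were separate infections or cultures, so that p-values measure the spread between these libraries, which may be technical.

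When unfolded proteins build up in the endoplasmic reticulum (ER), the sensors IRE1α (Ern1), ATF6 (Atf6) and PERK (Eif2ak3) signal to the nucleus. IRE1α splices the mRNA of Xbp1, ATF6 is cut by proteases in the Golgi, and PERK slows translation while it favours that of ATF4. The transcription factors made in this way raise ER chaperones, folding enzymes and the machinery that removes misfolded proteins. In macrophages, signalling by the LPS receptor is known to engage IRE1α and XBP1.

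Values are FPKM, the fragments counted on a gene relative to its exon length and to the total of its library, so that levels can be compared between genes. Depth, recovered from the step between low FPKM values, lay between 18163463 and 24388917 fragments per library. FPKM summed over all genes was 304393 to 304889 in control and 317936 to 324298 in PGAM5 KD libraries. Scaling to TPM, which sets every library to 1 total, lowered the log2 fold change of each of the 10 members, and the median log2 fold change of all genes tested was 0.01 on FPKM and -0.06 on TPM. For this reason the fold changes of the members are given on both scales. The constant 1 was added before the log on both, and TPM values are larger than FPKM, so it weighs less on TPM. This matters most for low genes. Ern1 had a log2 fold change of -0.32 on log2(FPKM + 1), -0.43 on log2(FPKM + 0.1) and -0.47 on TPM. A difference between the scales in low genes is thus not of library totals alone. Pgam5 had 17.1, 13.0 and 13.4 FPKM in control and 4.33, 5.75 and 4.53 FPKM in PGAM5 KD libraries, and the groups did not overlap (log2 fold change -1.40 with an SE, standard error, of 0.13, adjusted p = 0.000358 from limma, and -1.59 on TPM). Of 8 macrophage markers, 7 had a mean FPKM of at least 1 and Mertk was listed at 0 in every library. The markers summed to 2802 to 2894 FPKM in control and 2526 to 2544 FPKM in PGAM5 KD libraries, with Csf1r, Lyz2 and Cd68 below and Cd14, Fcgr1, Adgre1 and Itgam above the control libraries in every PGAM5 KD library. Their part in the results was not tested. Markers of neutrophils, fibroblasts and lymphocytes summed to at most 0.568 FPKM in any library. The only one of 5 plasma cell markers with a mean of 1 FPKM or more was Sdc1, at 5.36 FPKM in control and 4.85 FPKM in PGAM5 KD libraries on average, and Jchain was listed at 0. In bulk RNA, fewer cells of a type and less RNA per cell cannot be told apart.

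The promoters of 4 members carry the element through which ATF6 and XBP1 are known to act on ER chaperone genes, and these sequences are shown because the groups of genes below are read against them. The ER stress response element (ERSE) was searched as CCAAT, then 9 bases, then CCACG, and ERSE-II as ATTGG, 1 base, CCACG, both on either strand, from 250 bases before to 50 bases after the RefSeq start site. The RefSeq promoter table on GRCm38.p6 held 9 of the 10 members and not Atf6. Hspa5 had 1 ERSE, 65 to 47 bases before its start (shown, chr2:34772020-34772048, plus strand), in a stretch that is also the first exon of a GENCODE transcript. Hsp90b1 had 2, at 212 to 194 and, on the opposite strand, at 107 to 89 bases before its start (chr10:86705510-86705681, minus strand). Calr had 1 on the opposite strand, 162 to 144 bases before its start (chr8:84847050-84847118, minus strand), and Herpud1 had 1 ERSE-II, 52 to 42 bases before its start (chr8:94386352-94386412, plus strand). Pdia6, a disulfide isomerase that is no member and was picked after its values were seen, had an ERSE 98 to 80 bases before its start (chr12:17266466-17266534, plus strand). Capitals mark the match in the strand of the gene, so that an opposite match reads CGTGG first.
Hspa5: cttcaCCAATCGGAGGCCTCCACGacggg
Hsp90b1: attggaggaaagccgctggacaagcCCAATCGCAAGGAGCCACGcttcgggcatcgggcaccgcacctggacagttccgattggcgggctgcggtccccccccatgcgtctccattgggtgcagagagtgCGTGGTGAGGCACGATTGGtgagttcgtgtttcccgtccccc
Calr: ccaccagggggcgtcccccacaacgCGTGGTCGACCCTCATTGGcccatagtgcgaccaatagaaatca
Herpud1: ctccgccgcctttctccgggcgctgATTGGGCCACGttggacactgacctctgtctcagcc
Pdia6: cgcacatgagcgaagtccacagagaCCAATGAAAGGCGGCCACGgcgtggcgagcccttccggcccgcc

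Over all 32851 promoters of the table, 39 (0.119%) held an ERSE and 12 (0.0365%) an ERSE-II. The windows of Pdia4, Xbp1, Dnajb9, Sdf2l1 and Ern1 held neither run of letters, which says nothing of sites elsewhere or of variant sites. The counts for Hspa5, Hsp90b1, Calr and Herpud1 are likewise of exact letters only, and variant copies in their promoters were not counted. A match is a description of sequence and not evidence of binding.

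**Figure D1:**
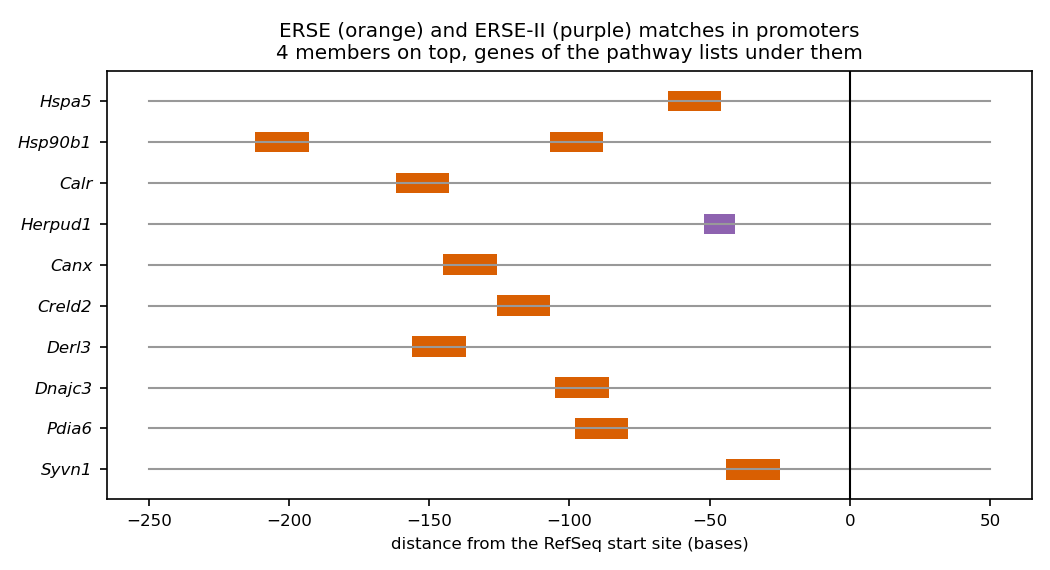
Positions of ERSE (orange) and ERSE-II (purple) matches before the RefSeq start site, in bases from the start, for the 4 members with a match and for 6 genes of the pathway lists. Dnajb11, whose ERSE-II lies 7 to 17 bases after the start, is not drawn. Of the matches drawn, those of Hspa5, Herpud1 and Syvn1 lie nearest to the start and that of Hsp90b1 at 212 to 194 bases lies farthest.

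Among the sensors, Ern1 was the member that fell. It encodes IRE1α, the kinase and endoribonuclease that splices Xbp1 mRNA, and lies on the minus strand at chr11:106394650-106487852 (ENSMUSG00000020715). Ern1 was at 2.94, 3.04 and 2.86 FPKM in control and 2.12, 2.07 and 2.31 FPKM in PGAM5 KD libraries, with 307 to 501 fragments in each library. All PGAM5 KD libraries lay below all control libraries. The means were 2.95 ± 0.0873 and 2.16 ± 0.127 FPKM (SD, n = 3 each), a log2 fold change of -0.32 on log2(FPKM + 1) (SE 0.08, adjusted p = 0.0199 from limma) and of -0.47 after scaling to TPM (adjusted p = 0.0105). This call was close to the threshold of 0.05 on FPKM, and it was lost with no filter on low genes (adjusted p = 0.0626) and with a replicate block (adjusted p = 0.0616), while a minimum of 5 FPKM left Ern1 untested. Without control replicate 1, control replicate 2, PGAM5 KD replicate 1 or PGAM5 KD replicate 2 the adjusted p of Ern1 from limma was 0.0555, 0.0621, 0.0508 and 0.0631, with log2 fold changes between -0.32 and -0.30.

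Atf6, the membrane-bound transcription factor, was at 25.2, 26.2 and 26.1 FPKM in control and 26.8, 25.4 and 24.2 FPKM in PGAM5 KD libraries (ENSMUSG00000026663, minus strand of chr1:170704674-170867771). The groups overlapped, and the log2 fold change was -0.02 (95% confidence interval -0.13 to 0.09, adjusted p = 0.787 from limma), or -0.10 on TPM (adjusted p = 0.204), and 0.02 without PGAM5 KD replicate 3. Eif2ak3, which encodes PERK and is no member, was at 3.09 FPKM in control and 2.78 FPKM in PGAM5 KD libraries on average (log2 fold change -0.12, adjusted p = 0.493 from limma, and -0.21 on TPM). Ern2, the paralog of Ern1, was listed at 0 in every library.

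Xbp1, the transcription factor whose mRNA IRE1α splices, lies on the plus strand at chr11:5520659-5525893 (ENSMUSG00000020484). It was at 48.9, 45.5 and 47.4 FPKM in control and 48.8, 50.3 and 51.2 FPKM in PGAM5 KD libraries. The groups overlapped, since PGAM5 KD replicate 1 was below control replicate 1. The log2 fold change was 0.08 (95% confidence interval -0.01 to 0.18, adjusted p = 0.156 from limma) and 0.01 on TPM (adjusted p = 0.935). Gene-level FPKM sums spliced and unspliced Xbp1, so these values carry no measure of splicing. Within each library the ratio of Xbp1 to Ern1, which no scaling between libraries changes, was 16.6, 14.98 and 16.6 in control and 23.1, 24.3 and 22.2 in PGAM5 KD libraries (exact two-sided permutation test, p = 0.1, the smallest that 3 against 3 can give).

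**Figure D2:**
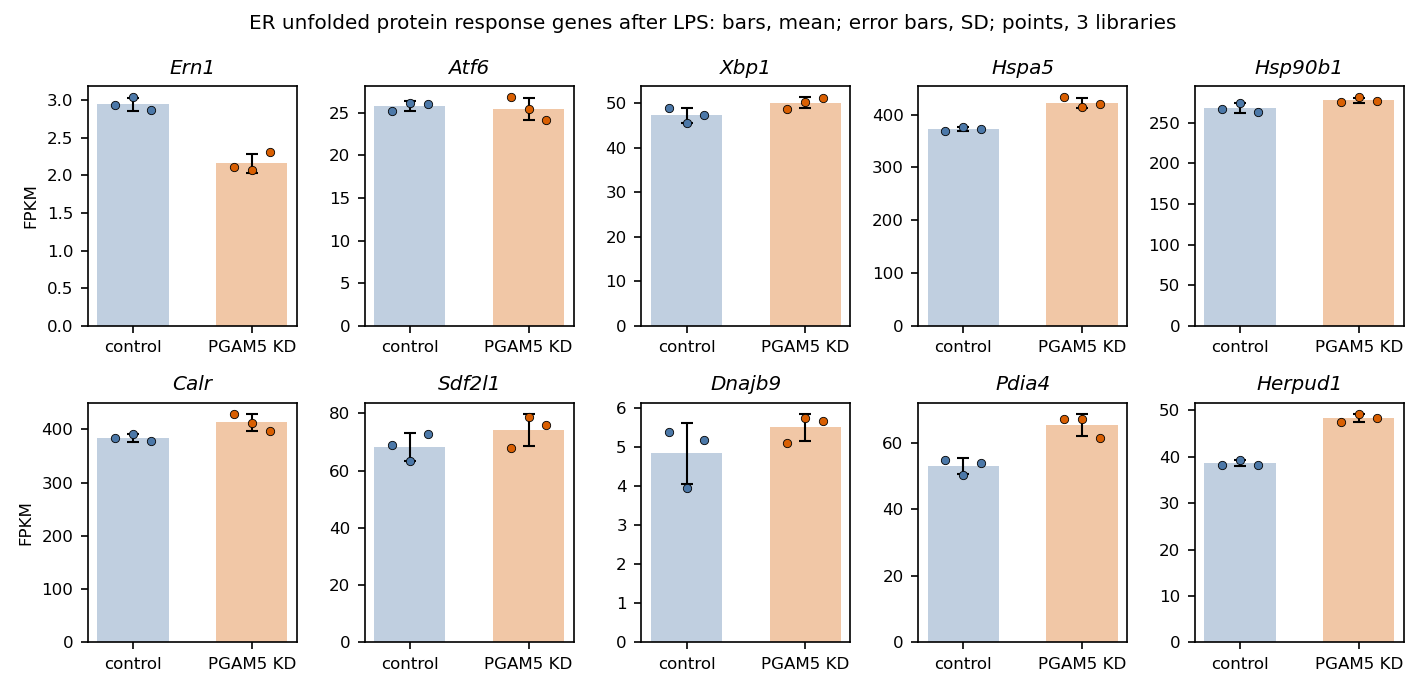
FPKM of the 10 members in control (blue) and PGAM5 KD (orange) iBMDMs after LPS, with bars for the mean, error bars for the SD and points for the 3 libraries of each group, each panel on its own linear axis from 0. Ern1 lies lower in every PGAM5 KD library, and Hspa5, Pdia4, Herpud1, Calr and Hsp90b1 lie higher. Of these, Calr and Hsp90b1 did not pass the test.

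Of the chaperones, Hspa5 rose. It encodes BiP, the ER Hsp70 that binds unfolded proteins and keeps the sensors inactive (ENSMUSG00000026864, plus strand of chr2:34771970-34777547). Hspa5 was at 369.7, 377 and 374 FPKM in control and 433, 415 and 419 FPKM in PGAM5 KD libraries. The lowest PGAM5 KD library was above the highest control library. The means were 373 ± 3.44 and 422 ± 9.07 FPKM (SD, n = 3 each), which gave a log2 fold change of 0.18 (SE 0.03, adjusted p = 0.00340 from limma). On TPM the log2 fold change of Hspa5 was 0.10 (adjusted p = 0.0495), just inside the threshold, and with quantile normalization it was 0.06 and did not pass (adjusted p = 0.238). Hspa5 against Hspa8, its cytosolic relative, was 0.732 ± 0.0235 in control and 0.771 ± 0.0146 in PGAM5 KD libraries (SD, n = 3 each), and no libraries of the 2 groups overlapped (two-sided exact permutation p = 0.1).

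Calr, the lectin chaperone calreticulin, was at 383, 390.5 and 377 FPKM in control and 429, 412 and 397 FPKM in PGAM5 KD libraries (ENSMUSG00000003814, minus strand of chr8:84841850-84846934). The groups did not overlap, but the log2 fold change of 0.10 (95% confidence interval 0.02 to 0.19) did not pass over all genes (adjusted p = 0.0589 from limma), and it was 0.03 on TPM (adjusted p = 0.647) and -0.02 with quantile normalization. Without PGAM5 KD replicate 3 it passed on FPKM (log2 fold change 0.13, adjusted p = 0.0410). Canx, the membrane-bound relative of calreticulin, was at 195 FPKM in control and 192 FPKM in PGAM5 KD libraries on average, and Calr against Canx was 1.97, 1.98 and 1.95 in control and 2.18, 2.13 and 2.12 in PGAM5 KD libraries, without overlap.

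Hsp90b1, the ER Hsp90 (GRP94), was at 267, 274 and 263 FPKM in control and 275, 281 and 276 FPKM in PGAM5 KD libraries (ENSMUSG00000020048, minus strand of chr10:86690209-86705509). The groups were apart by less than 1 FPKM at their nearest libraries. The log2 fold change was 0.05 on FPKM (95% confidence interval -0.02 to 0.12, adjusted p = 0.227 from limma), -0.03 on TPM, where the groups overlapped (adjusted p = 0.479), and -0.06 with quantile normalization. Hsp90b1 shares 415 bases of exon with 1810014B01Rik, a pseudogene on the other strand. On its own strand it shares 84 bases with Gm15344 and 133 with Gm25745. Of the fragments counted on Hsp90b1 or 1810014B01Rik, at least 99.3% were on Hsp90b1. This share does not tell how fragments in the shared bases were assigned.

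Sdf2l1 and Dnajb9 encode partners of BiP, Sdf2l1 in a complex with an ER DnaJ protein and Dnajb9 as a DnaJ cochaperone itself (ERdj4). Sdf2l1 (ENSMUSG00000022769, minus strand of chr16:17130138-17132383) was at 68.8, 63.2 and 72.9 FPKM in control and 68.0, 78.7 and 76.1 FPKM in PGAM5 KD libraries. Dnajb9 (ENSMUSG00000014905, minus strand of chr12:44205559-44210326) was at 5.40, 3.95 and 5.18 FPKM in control and 5.12, 5.75 and 5.68 FPKM in PGAM5 KD libraries. For both genes PGAM5 KD replicate 1 lay among the control libraries. The log2 fold change was 0.12 for Sdf2l1 (95% confidence interval -0.05 to 0.28, adjusted p = 0.244 from limma) and 0.16 for Dnajb9 (95% confidence interval -0.09 to 0.42, adjusted p = 0.284 from limma). On TPM it was 0.04 (adjusted p = 0.681) and 0.11 (adjusted p = 0.514). Single libraries moved both values: without control replicate 2 the log2 fold change on FPKM was 0.06 for Sdf2l1 and 0.05 for Dnajb9, and for Sdf2l1 it was 0.18 without PGAM5 KD replicate 1 and 0.08 without PGAM5 KD replicate 2. The intervals leave room for changes as large as that of Hspa5, and Dnajb9 rested on 203 to 353 fragments per library.

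Pdia4, a protein disulfide isomerase (ERp72), rose. It lies on the minus strand at chr6:47796141-47813430 (ENSMUSG00000025823) and was at 54.8, 50.3 and 53.8 FPKM in control and 67.2, 67.2 and 61.4 FPKM in PGAM5 KD libraries. The groups did not overlap, with means of 53.0 ± 2.33 and 65.3 ± 3.37 FPKM (SD, n = 3 each). The log2 fold change was 0.30 (SE 0.05, adjusted p = 0.00556 from limma) and 0.22 on TPM (adjusted p = 0.0197). Pdia6, a disulfide isomerase of the same family, moved the other way, from 109.9, 111 and 104 FPKM in control to 102, 96.6 and 96.9 FPKM in PGAM5 KD libraries (log2 fold change -0.13, adjusted p = 0.0399 from limma, and -0.21 on TPM). Pdia4 against Pdia6 was accordingly 0.490 ± 0.0334 in control and 0.662 ± 0.0316 in PGAM5 KD libraries (SD, n = 3 each), without overlap.

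Herpud1 had the largest rise among the members as a percentage of its control mean and on the log2 scale, though Hspa5 gained more FPKM. It encodes a membrane protein of ER-associated degradation, the removal of misfolded proteins to the proteasome (ENSMUSG00000031770, plus strand of chr8:94386438-94395377). Herpud1 was at 38.3, 39.3 and 38.2 FPKM in control and 47.5, 49.2 and 48.2 FPKM in PGAM5 KD libraries. The spread within each group was small beside the gap between them, with means of 38.6 ± 0.608 and 48.3 ± 0.860 FPKM (SD, n = 3 each). The log2 fold change was 0.32 (SE 0.03, adjusted p = 0.000647 from limma) and 0.24 on TPM (adjusted p = 0.00204). Its rank above Pdia4 did not hold without control replicate 1, where Pdia4 was at 0.320 and Herpud1 at 0.312. Herpud1 against Hspa5 was 0.104, 0.104 and 0.102 in control and 0.110, 0.118 and 0.115 in PGAM5 KD libraries, the only 1 of 9 ratios of a member to Hspa5 that was higher in every PGAM5 KD library. Of the other ratios to Hspa5, those of Hsp90b1, Calr, Ern1 and Atf6 were lower in every PGAM5 KD library and those of Pdia4, Xbp1, Dnajb9 and Sdf2l1 overlapped. Of 8 ratios of a member to a relative, 4 were higher and 1 was lower in every PGAM5 KD library, and 3 overlapped between the groups. The ratios that overlapped were those of Hsp90b1 to Hsp90ab1 (0.214 in control and 0.227 in PGAM5 KD libraries on average), Sdf2l1 to Sdf2 (7.06 and 5.85) and Ern1 to Eif2ak3 (0.963 and 0.789). How often ratios of other gene pairs do not overlap was not computed, and 24.2% of single genes were higher and 22.9% lower without overlap, so these counts only describe the pairs named.

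**Figure D3:**
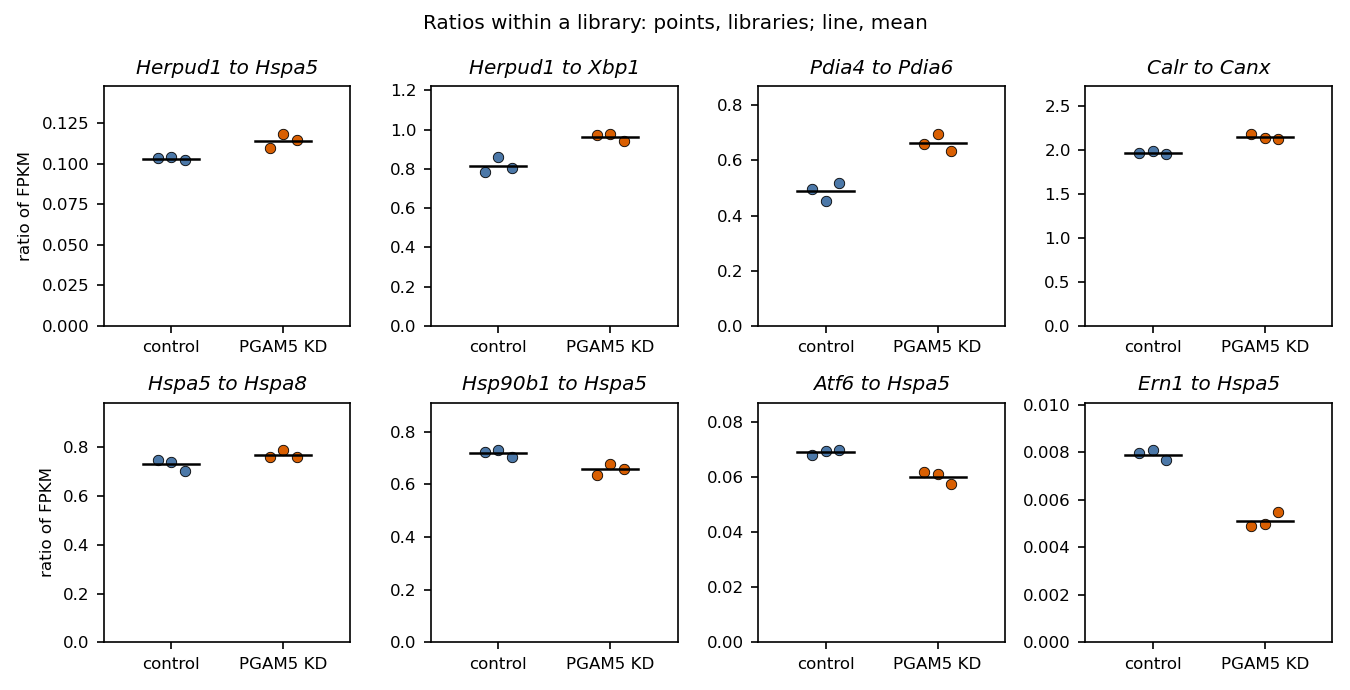
Ratio of FPKM of 2 genes within each library, for 8 pairs picked from those without overlap, with the values known, in control (blue) and PGAM5 KD (orange) iBMDMs, with points for libraries and a line for the mean of 3, each on a linear axis from 0. By this choice the groups do not overlap in any panel, and the ratio of Ern1 to Hspa5 went from 0.00789 to 0.00512.

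Counted over the members, 3 of 10 were called higher and 1 of 10 lower at an adjusted p under 0.05. With the added fold threshold of the study, an absolute log2 fold change above 1, 0 of the 10 members were called by limma (4 had an unadjusted p under 0.05 and passed the adjusted threshold, and Calr had an unadjusted p of 0.0198), beside 1.32% of all genes. On TPM the same 3 members were called higher and Ern1 lower, while the background was 10.3% higher and 21.7% lower. The libraries of the groups did not overlap for 5 members that were higher and 1 that was lower on FPKM, beside 24.2% and 22.9% of all genes, and for 3 and 1 on TPM, beside 15.7% and 31.6%. The median log2 fold change of the members was 0.11 on FPKM and 0.03 on TPM, where that of all genes was 0.01 and -0.06.

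**Figure D4:**
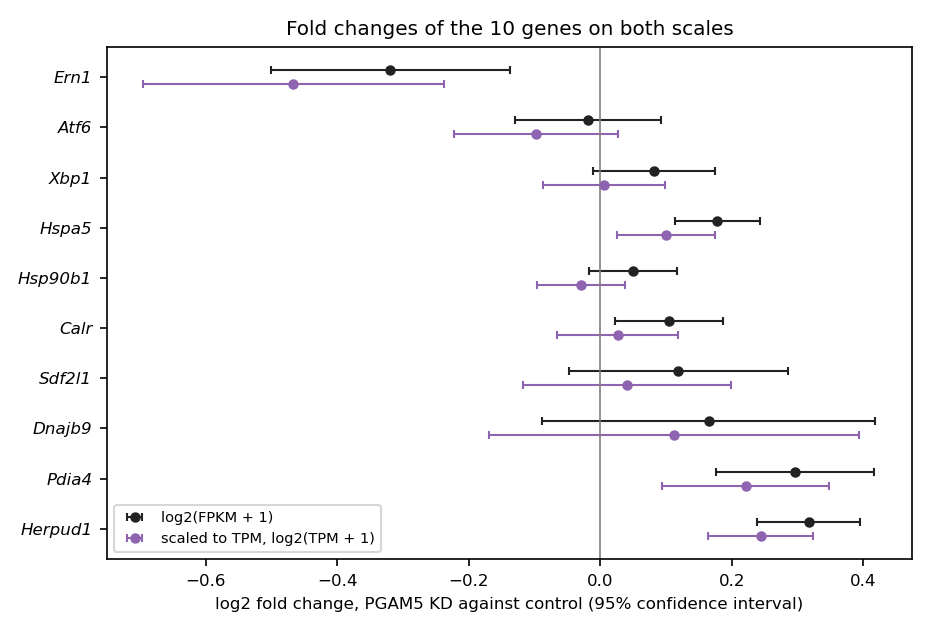
Log2 fold change of each member, PGAM5 KD against control, with its 95% confidence interval from limma, on log2(FPKM + 1) (black) and after scaling to TPM (purple). The intervals of Ern1 lie below 0 and those of Hspa5, Pdia4 and Herpud1 above 0 on both scales, and that of Hsp90b1 holds 0 on both.

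The levels of the 10 genes spanned more than 100-fold in both groups. In control libraries Calr (384 FPKM on average) and Hspa5 (373 FPKM) led, followed by Hsp90b1, Sdf2l1, Pdia4, Xbp1, Herpud1, Atf6, Dnajb9 and Ern1, and no pair of neighbours in this order overlapped. In PGAM5 KD libraries Hspa5 (422 FPKM) and Calr (413 FPKM) overlapped, as did Xbp1 (50.1 FPKM) and Herpud1 (48.3 FPKM), while Xbp1 was above Herpud1 in every control library. Together the members held 0.414% to 0.418% of all FPKM in control and 0.421% to 0.441% in PGAM5 KD libraries. The protein-coding genes whose profile over the 6 libraries was most like that of Hspa5, by the root mean square difference of centred log2(FPKM + 1), were Ppp2r5c (0.00423), Eef1a1, Rpl7, Ube2m and Ets2 (0.0151) among 9337 genes ranked. Those most like Xbp1 were Alg2 (0.0129), Rab3gap1, Nhp2, Msto1 and Fkbp4 (0.0182), and no other member was among the 5 nearest of either gene.

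Other ER genes of the pathway, and cytosolic heat shock chaperones beside them, were counted in 7 lists of 109 genes, 95 of which were tested. On FPKM 29 rose and 6 fell, with a median log2 fold change of 0.08, beside 16.8% higher and 14.9% lower among all genes tested. On TPM 12 rose and 16 fell, with a median of 0.00, beside 10.3% higher and 21.7% lower among all genes, and 4 of the 29 rises on FPKM were cytosolic heat shock chaperones. Most of the balance between rises and falls in these lists thus depended on the scale. The count of rises on FPKM was 19 without control replicate 2 and 17 without control replicate 3. It was 16 without PGAM5 KD replicate 2 and 18 without PGAM5 KD replicate 3. Rises among all genes fell as well, from 1771 to 1362, 1307, 1281 and 1211 in the same order. The shares of all genes given here and below come from every library, so they are no background for list counts with a library left out.

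Chaperones and folding enzymes of the ER lumen had the most rises, 13 of 25 tested on FPKM and 8 on TPM, with 2 falls on FPKM and 4 on TPM. Of all genes tested 16.8% rose on FPKM and 10.3% on TPM, and 14.9% and 21.7% fell. Over the list the log2 fold change had a median of 0.14 on FPKM and 0.06 on TPM. P4hb, the archetypal protein disulfide isomerase, had 299, 294 and 296 FPKM in control and 466, 464 and 472 FPKM in PGAM5 KD libraries (log2 fold change 0.65, SE 0.02, adjusted p = 1.54e-05 from limma, and 0.58 on TPM). This was a larger rise than that of any of the 10 members. Fkbp2, an ER prolyl isomerase, rose from 57.9 to 81.2 FPKM (log2 fold change 0.49, and 0.41 on TPM), Ero1l, the oxidase that recharges disulfide isomerases, from 25.8 to 35.5 FPKM (0.44 and 0.38), and Sdf2, the relative of Sdf2l1, from 9.84 to 12.8 FPKM (0.35 and 0.30). Sdf2 did not pass on TPM (adjusted p = 0.0764). The count of rises was 8 without control replicate 3 and also without PGAM5 KD replicate 2, and that of falls was 1 without control replicate 1, control replicate 2, PGAM5 KD replicate 2 or PGAM5 KD replicate 3.

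**Figure D5:**
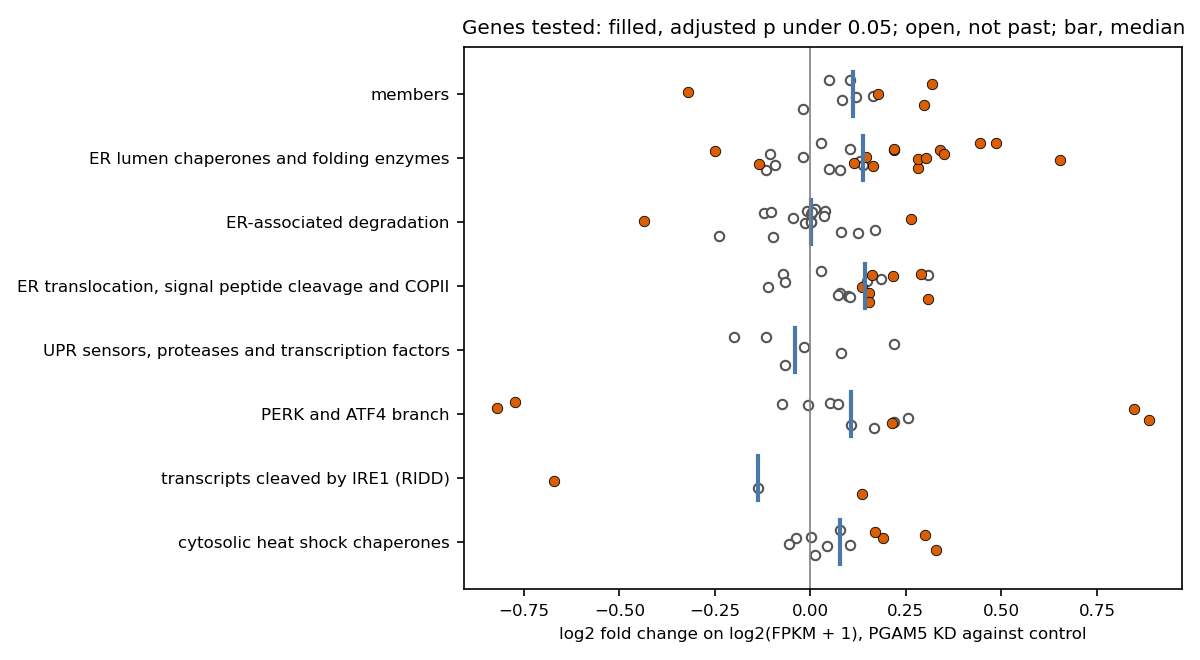
Log2 fold change on log2(FPKM + 1), PGAM5 KD against control, of the members and of the tested genes of 7 pathway lists, 1 point per gene, filled at an adjusted p under 0.05 and open otherwise, with a bar at the median. The ER lumen list holds 13 filled points above 0, and the PERK and ATF4 list spreads from -0.82 to 0.89.

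Genes of ER-associated degradation other than Herpud1 gave 1 rise and 1 fall among 19 tested, with a median log2 fold change of 0.00 on FPKM, beside 16.8% and 14.9% of all genes. On TPM they gave 0 rises and 5 falls, beside 10.3% and 21.7%. Edem1, which hands misfolded glycoproteins over for degradation, fell from 64.9, 68.2 and 66.6 FPKM in control to 48.8, 50.1 and 47.9 FPKM in PGAM5 KD libraries (log2 fold change -0.44, SE 0.04, adjusted p = 0.000211 from limma, and -0.52 on TPM). Os9, a lectin of the same route, rose on FPKM (log2 fold change 0.26, adjusted p = 0.0194) but not on TPM (adjusted p = 0.0666), and the list had 0 rises without control replicate 2, PGAM5 KD replicate 1 or PGAM5 KD replicate 3. Without PGAM5 KD replicate 1 the list had 2 falls. Herpud1 and Edem1, both known targets of the response, thus moved in opposite directions on both scales.

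Genes of translocation into the ER, signal peptide cleavage and COPII transport had 7 rises and 0 falls among 18 tested on FPKM, but 1 rise and 1 fall on TPM. Among all genes 16.8% rose and 14.9% fell on FPKM and 10.3% and 21.7% on TPM. Sec61b, a subunit of the translocation channel, was the gene that rose on both (log2 fold change 0.31 and 0.23). Sec62 (0.29), Srprb (0.22), a subunit of the signal recognition particle receptor, and Spcs2 (0.16), a subunit of signal peptidase, rose on FPKM alone. The count of rises was 3 without control replicate 2, 2 without control replicate 3, 4 without PGAM5 KD replicate 1, 3 without PGAM5 KD replicate 2 and 4 without PGAM5 KD replicate 3. Of 6 tested sensors, proteases and transcription factors that are no members, 0 passed in either direction by limma on FPKM or TPM, and their log2 fold changes on FPKM lay between -0.20 and 0.22. The lowest was that of Creb3l4, at 1.14 FPKM in control and 0.868 FPKM in PGAM5 KD libraries on average. Creb3l4 thus reached the filter of 1 FPKM only through the control libraries.

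The PERK and ATF4 branch had 3 rises and 2 falls among 13 tested on FPKM, and 2 rises and 3 falls on TPM, beside the shares of all genes (16.8% and 14.9% on FPKM, 10.3% and 21.7% on TPM). Atf4 itself was at 128, 133 and 129 FPKM in control and 124, 125 and 121 FPKM in PGAM5 KD libraries (log2 fold change -0.07, adjusted p = 0.112 from limma), and it passed as lower on TPM (-0.15, adjusted p = 0.0121). Ddit3, which encodes the proapoptotic factor CHOP, fell from 6.07, 4.46 and 5.71 FPKM to 2.58, 2.80 and 2.82 FPKM (log2 fold change -0.77, SE 0.11, adjusted p = 0.00220 from limma, and -0.97 on TPM). Slc7a11, the cystine transporter, fell as well (-0.82, adjusted p = 0.000217, and -0.97 on TPM). In the other direction were Ddit4, an inhibitor of mTORC1 (0.89, adjusted p = 0.00875, and 1.09 on TPM), and Trib3, a pseudokinase known as a target of CHOP (0.85, adjusted p = 0.0212, and 1.204 on TPM), both from low levels of 1.24 and 0.698 FPKM in control libraries. Trib3 reached the filter of 1 FPKM only through the PGAM5 KD libraries, where it averaged 2.02 FPKM, so its test is no support for a rise although it is among the 3 counted. With a minimum of 5 FPKM, which left out Ddit4, Trib3 and Ddit3, the list had 1 rise and 1 fall. The log2 fold changes of Ddit3, Slc7a11 and Ddit4 were larger in size than that of any of the 10 members.

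Of 8 transcripts known to be cut by IRE1α outside Xbp1, 3 were tested. Pmp22, a membrane protein best known from myelin, fell from 18.7 ± 1.70 to 11.4 ± 0.317 FPKM (SD, n = 3 each, log2 fold change -0.67, adjusted p = 0.000578 from limma, and -0.78 on TPM). Tapbp, which loads peptides on MHC class I together with calreticulin, rose on FPKM (0.13, adjusted p = 0.0177), but not on TPM (0.06, adjusted p = 0.224) nor on FPKM without control replicate 1 or PGAM5 KD replicate 2. Hgsnat, the other gene tested, did not pass (-0.14, adjusted p = 0.312 from limma, and -0.22 on TPM). With 2 negative and 1 positive log2 fold change on FPKM, the 3 genes are too few to give the list a direction.

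The 4 members with an ERSE or ERSE-II, Herpud1, Hspa5, Calr and Hsp90b1, were all higher in every PGAM5 KD library than in any control library on FPKM, as was Pdia4, which had no match in the window. On TPM this held for Herpud1, Hspa5 and Pdia4, while Calr and Hsp90b1 overlapped. Of all genes tested, 24.2% were higher without overlap on FPKM and 15.7% on TPM. Among listed genes with a match, Dnajc3 and Dnajb11 were also higher without overlap on FPKM. Canx, Creld2 and Syvn1 overlapped, and Pdia6 was lower. Herpud1 and Hspa5 passed the test, and Calr and Hsp90b1 did not. A relation between the matches and the fold changes was not tested. Among all tested genes with an ERSE, members included, 1 of 11 rose (Hspa5) and 3 fell (Pan2, Pdia6 and Hnrnpa3), with a median log2 fold change of -0.02. Among those with an ERSE-II, 2 of 9 rose (Herpud1 and Nucb1) and 1 fell (Rbm39), with a median of 0.11. As members are among the rises, these counts are no separate check on the members. Of all genes tested, 16.8% rose and 14.9% fell. With so few genes the counts show nothing particular to either element.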

How the data were processed

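Poly(A) RNA of 6 iBMDM libraries was sequenced by the authors' provider. The authors deposited FPKM, 1 value per Ensembl gene and library, which the submitters' processing notes tie to HISAT2 2.0.5, featureCounts 1.5.0-p3 and mm10, while the labels do not give whether libraries kept strand. Gene names, exon lengths and coordinates came from GENCODE M21, which held 54495 of the 54532 identifiers. FPKM times exon length fell on whole fragments within 0.01 for 96.8% to 97.1% of low values, which gave the depth of each library. At the lowest depth 1 fragment on 1 kb of exon was worth 0.0551 FPKM.

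Log2(FPKM + 1) of genes with a mean of at least 1 FPKM was fitted with limma 3.58.1 in R 4.3.3 (mean-variance trend, two-sided, Benjamini-Hochberg over 10540 genes), after the step was tested on simulated data. A fold change on this scale understates that of low genes. Replicates differed by more than sampling noise (chi-square per degree of freedom 4.82 to 8.16), so none was counted as a copy. Genes were called at an adjusted p under 0.05, with and without the study's fold threshold. The members and lists were chosen with earlier results of these data known, and so were the ratios. Named genes were the members, Pgam5, at most 4 called genes of each list by size, Eif2ak3, Atf4 and Ddit3, the 5 nearest profiles, marker genes and genes that overlap or resemble a member (blastn 2.17.0, at least 85% identity over 200 bases). Others, such as Pdia6, Canx, Hspa8, Ern2 and genes named for a promoter match, were picked after their values were seen. Of 2 identifiers named Ddit3 the higher was used. Promoters came from RefSeq on GRCm38.p6. Alternatives were a pseudocount of 0.1, no filter, a minimum of 5 FPKM, TPM, quantile normalization, centring on library medians, no trend, a replicate block, voom on recovered fragments and leaving out each library. Further steps used Python 3.11.15 with pandas 2.3.3, scipy 1.17.1 and matplotlib 3.10.9.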

Additional observations from a re-analysis of the deposited data

How the results depend on the processing

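Over all alternatives Herpud1 and Pdia4 stayed higher and called, at log2 fold changes of 0.24 to 0.33 and 0.22 to 0.34. Ern1 was below control in each fit that held it (-0.47 to -0.30), but the count of members called lower went from 1 to 0 when low genes were kept (adjusted p of Ern1 0.0626), with a minimum of 5 FPKM, which left Ern1 out, and with the replicate block (0.0616). The cause was not tested. Leaving out single libraries gave 3 to 4 members higher and 0 to 1 lower, and 16 to 21 listed genes higher and 5 to 7 lower. Over all genes the same fits gave 1211 to 1484 higher and 1128 to 1359 lower, against 1771 and 1575 with every library. With quantile normalization Hspa5 did not pass, and Calr (-0.0151) and Hsp90b1 (-0.0583) changed sign, as did Hsp90b1 on TPM (-0.0291), and Atf6 without PGAM5 KD replicate 3 (0.0159, within a range of -0.0550 to 0.0159 over the libraries left out). Calr passed with library median centring (adjusted p = 0.0486) and with voom on recovered fragments (adjusted p = 0.0156).

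Listed genes called higher fell from 29 to 12 on TPM, 19 with quantile normalization and 19 without the trend, and those called lower went from 6 to 16 on TPM, 11 with quantile normalization and 10 with voom. Calls over all genes went from 1771 to 1088 higher on TPM, where 32.3% of calls were higher against 52.9% on FPKM. Same-numbered libraries did not deviate together (correlations of -0.02, 0.02 and -0.05), so the numbers were not taken as pairs. With the replicate block 3 members were called higher and 0 lower, 21 listed genes higher and 5 lower, and 1440 and 1212 genes in all, and no library correlated best with its own number. Depth limits Ern1 and Dnajb9 most, at 307 to 501 and 203 to 353 fragments.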

Other observations

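Cytosolic heat shock chaperones, which answer to HSF1 and not to the ER sensors, had 4 rises and 0 falls among 11 tested genes on FPKM (median log2 fold change 0.08) and 1 rise and 2 falls on TPM, beside 16.8% and 14.9% of all genes on FPKM and 10.3% and 21.7% on TPM. Dnajb1, an Hsp40 cochaperone, went from 10.1 ± 0.448 to 12.7 ± 1.05 FPKM (SD, n = 3 each, log2 fold change 0.30, adjusted p = 0.0164 from limma) and was the gene that also rose on TPM (0.24, adjusted p = 0.0440). Hspa1b (0.33), Stip1 (0.19) and Chordc1 (0.17) rose on FPKM but did not pass on TPM. The count of rises was 2 without control replicate 1, control replicate 3, PGAM5 KD replicate 1 or PGAM5 KD replicate 3, and 1 without PGAM5 KD replicate 2.

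The UPRE core, an element of 8 letters bound by XBP1 and ATF6, matched 222 of 32851 promoters (0.676%) and 0 of the 9 member promoters. Of 83 tested genes with a match 13 rose and 7 fell on FPKM, with a median log2 fold change of 0.02, beside 16.8% and 14.9% of all genes.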
